A study of Drosophila melanogaster with 4 samples.

Results

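Transcripts of 9 genes that encode replacement histones, their chaperones and a histone mRNA binding protein were followed in Drosophila melanogaster testes. The genes were picked by name from the 14664 genes of the deposited tables. They were His3.3A, His3.3B, His2Av, His4r, BigH1 (listed as CG3509), Hira, asf1, Slbp and Nap1. Each was found once in every table, and all 9 passed the filter of a mean of at least 1 FPKM. FPKM scales fragments to transcript length and to sequencing depth, so levels of different genes can be set side by side.

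RNA came from whole testes of 2 genotypes, Phf7-bam- and bam-, taken within 3 days of eclosion from flies reared at 25°C. There were 2 libraries of each genotype, and the labels present them as biological replicates. Loss of bam is thus shared by both genotypes, which differ by the loss of Phf7, a PHD finger gene known for its part in male germline identity. A bam testis accumulates early germ cells that do not enter spermatocyte differentiation. The sources used here name neither the alleles nor the genetic backgrounds. In bulk tissue, fewer cells of a type and less RNA per cell cannot be told apart.

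Most histones are made in S phase from clustered, replication-dependent genes, whose mRNAs end in a stem-loop and not in a poly(A) tail. Replacement histones are encoded elsewhere, their mRNAs are polyadenylated, and they enter chromatin outside replication as well. Chaperones escort histones to DNA. In the fly this machinery is known for the exchange of histones for protamines in spermatids and for the reverse exchange on paternal chromatin in the fertilised egg.

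The labelled loss of Phf7 and the tissue were checked first. Phf7 had 18.8 and 22.9 FPKM in Phf7 bam testes, against 173.2 and 152.0 FPKM in bam testes, and was called lower (limma adjusted p = 0.00706). bam had 27.6 and 32.6 FPKM in Phf7 bam testes, against 28.6 and 26.5 FPKM in bam testes (limma adjusted p = 0.955). Both genotypes are labelled as bam mutants and there is no library with intact bam, so these values cannot check the loss of bam. The summed FPKM of 8 early germline markers was 739 and 835 in Phf7 bam and 734 and 690.0 in bam. The 10 markers of spermatocytes and spermatids summed to 114.6 and 137.6 FPKM in Phf7 bam and to 122.6 FPKM in each bam library. Of these, CycB, bol, twe and aly were at 7.15 FPKM or above in every library and the other 6 at 3.17 FPKM or below. CycB alone had 59.0 and 70.8 FPKM in Phf7 bam and 62.1 and 59.2 FPKM in bam. The sums thus rest largely on CycB and do not measure spermatocyte content. Phf7 bam replicate 2 ran high across the transcriptome, with a median log2 deviation of 0.10 from the mean of the 4 libraries over 8965 genes, and Phf7 bam replicate 1 ran low, at -0.08. Transcripts of 5 seminal fluid genes of the accessory gland summed to 1009 and 16.8 FPKM in Phf7 bam and to 5.98 and 521 FPKM in bam, so these libraries differed in content within each genotype.

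BigH1 was the gene of the set with the largest difference, and it was lower in the double mutant, although it did not pass the threshold over all genes. Means of the other 8 genes in Phf7 bam testes lay between 2.5% below and 13.0% above those in bam testes. None of the 9 was called by limma at an adjusted p of 0.05, where 0.234% of the 8965 genes tested were called. BigH1 was the only member with an unadjusted p under 0.05, a level reached by 6.13% of genes.

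**Figure D1:**
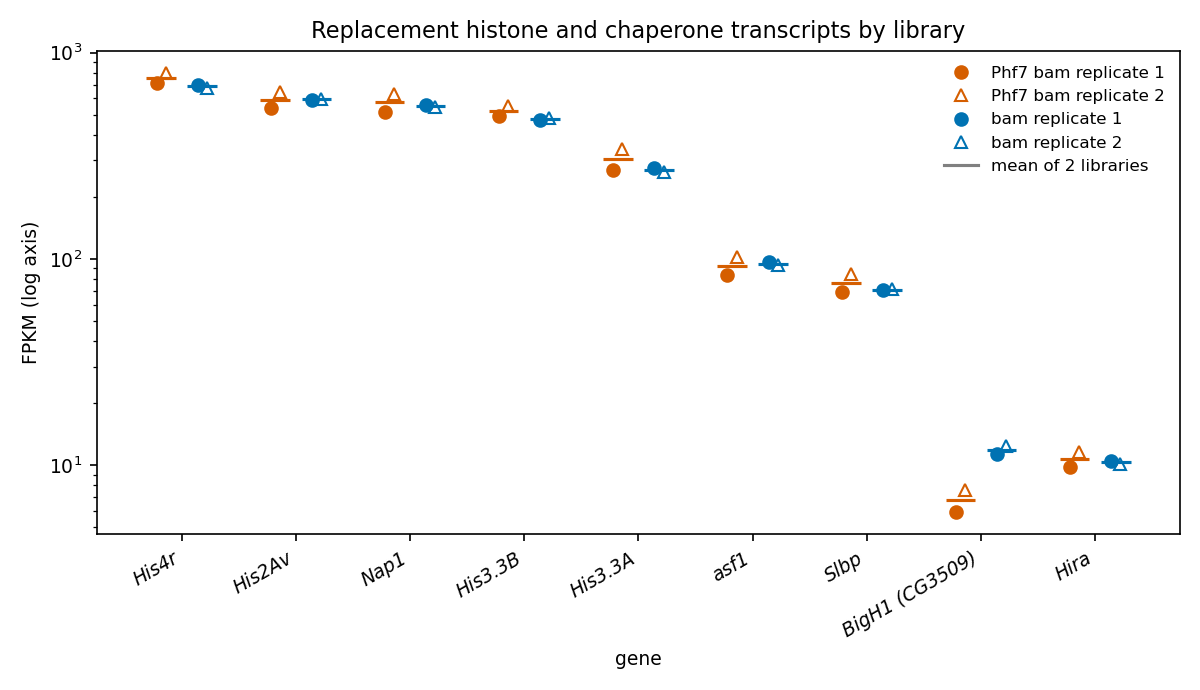
FPKM on a log axis for each of the 9 genes in the 4 libraries, Phf7 bam in orange and bam in blue, with filled circles for replicate 1, open triangles for replicate 2 and bars for the mean of 2 libraries. The genes span from below 10 FPKM to about 798 FPKM, and BigH1 is the only low gene whose genotypes stand clearly apart.

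The replacement core histones were among the most abundant transcripts of these testes. His4r, which encodes the same H4 protein as the clustered genes from a separate locus (dm3, 3R, 10451461 to 10452336, plus strand), had 709 and 798 FPKM in Phf7 bam testes, against 699.6 and 672 FPKM in bam testes. Both Phf7 bam libraries were above both bam libraries, as they were for 20.5% of all genes tested. The means were 754 ± 63.3 FPKM in Phf7 bam and 686 ± 19.8 FPKM in bam (SD, n = 2 each), a log2 difference of 0.13 (SE 0.128, limma adjusted p = 0.933). It ranked 153rd of 14664 genes by mean FPKM.

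His2Av is the only H2A variant of the fly and does the work that other animals divide between H2A.Z and H2A.X (3R, 22692653 to 22694630, plus strand). It had 541 and 642 FPKM in Phf7 bam testes, against 592 and 597 FPKM in bam testes. The bam libraries fell between the Phf7 bam libraries, and the log2 difference was -0.01 (SE 0.138, limma adjusted p = 0.995).

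H3.3, the replacement form of H3, is made from a pair of genes that encode the same protein with different untranslated regions. His3.3B (X, 9047271 to 9050721, minus strand) had 493 and 552 FPKM in Phf7 bam testes, against 469 and 479 FPKM in bam testes. Both Phf7 bam libraries were above both bam libraries, as they were for 20.5% of all genes tested. The log2 difference was 0.14 (SE 0.123, limma adjusted p = 0.931). His3.3A (2L, 5055058 to 5055995, plus strand) had 269 and 340.3 FPKM in Phf7 bam testes, against 275 and 264 FPKM in bam testes. Here Phf7 bam replicate 2 stood above the other 3 libraries, which were alike, and the log2 difference was 0.17 (SE 0.156, limma adjusted p = 0.933).

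His3.3B was thus the larger source of H3.3 mRNA in all 4 libraries, with a ratio of means over His3.3A of 1.74. His3.3A contributed 35.3% and 38.1% of the FPKM of the pair in Phf7 bam testes, against 37.0% and 35.5% in bam testes. The genotypes overlapped, with means of 36.7 ± 2.04% and 36.2 ± 1.06% (SD, n = 2 each; exact permutation test, two-sided, p = 1). With 2 libraries against 2, this test cannot give a p below 0.333. The deposited FPKM of His3.3A exceeded the upper bound of its own deposited interval by a factor of 1.22 to 1.23 in every library. Computed from interval midpoints, its share was 29.8% and 32.4% in Phf7 bam and 31.4% and 30.01% in bam, so the level of the share depends on which deposited value is used. His2Av, Slbp and Nap1 also lay above their intervals in all 4 libraries.

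BigH1 encodes the linker histone of the early fly embryo, which is also made in the germline and gives way to somatic H1 as the zygotic genome becomes active (3R, 10489165 to 10490544, plus strand). It had 5.91 and 7.60 FPKM in Phf7 bam testes, against 11.3 and 12.4 FPKM in bam testes. Both Phf7 bam libraries lay below both bam libraries, which was the case for 14.0% of all genes tested. The means were 6.76 ± 1.20 FPKM in Phf7 bam and 11.9 ± 0.827 FPKM in bam (SD, n = 2 each), a ratio of 0.570.

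The log2 difference of BigH1 was -0.74 (SE 0.153, 95% interval -1.14 to -0.33; limma unadjusted p = 0.00592, adjusted p = 0.374). By unadjusted p it ranked 142nd of the 8965 genes, and 182 genes had a more negative difference. Robust moderation, which sets most genes' spread from their expression level, called BigH1 lower (limma adjusted p = 0.000513); 3.42% of genes were called under that setting. In the other 14 alternatives it was not called. Over the reported fit and its 15 alternatives the log2 difference stayed between -0.90 and -0.58, and the limma adjusted p ranged from 0.000513 to 1.

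Of the 8 early germline markers 5 had a positive and 3 a negative difference, and 57.4% of all genes tested had a positive one. Per 1000 FPKM of the 8 markers, BigH1 had 7.99 and 9.11 FPKM in Phf7 bam testes, against 15.4 and 18.0 FPKM in bam testes (exact permutation test, two-sided, p = 0.333, the smallest possible). The translational repressor gene nanos, with 171 and 205 FPKM in Phf7 bam and 136 and 129 FPKM in bam, had the largest difference of these markers (log2 difference 0.49, limma adjusted p = 0.610), and without it the values of BigH1 were 10.4 and 12.1 FPKM in Phf7 bam and 18.9 and 22.2 FPKM in bam. The germline RNA helicase gene vas had a log2 difference of -0.0034 and the innexin gene zpg of -0.12 (limma adjusted p = 0.998 and 0.938). Markers of fat body and of haemocytes had positive differences in 5 of 5 and 3 of 3 tested members, beside that 57.4% of all genes. The fat body markers Yp1 and Yp2, below the filter, went the other way. Yp1 had 0.115 and 0.070 FPKM in Phf7 bam, against 0.266 and 0.162 FPKM in bam. Yp2 had 0.494 and 0.475 FPKM in Phf7 bam, against 0.706 and 0.576 FPKM in bam. Among the 3 haemocyte markers tested, NimC1 had a mean of 1.66 FPKM in Phf7 bam and 0.939 FPKM in bam. It passed the filter of 1 FPKM only through Phf7 bam, so its positive sign carries no weight. Fat body markers, 7 in all, summed to 57.8 and 68.6 FPKM in Phf7 bam and to 27.0 and 36.8 FPKM in bam, and the 5 haemocyte markers to 20.7 and 20.1 FPKM in Phf7 bam and to 13.8 and 14.4 FPKM in bam, with He at 0 throughout. The 6 gut markers summed to 110.2 and 136.9 FPKM in Phf7 bam and to 91.1 and 66.3 FPKM in bam, nearly all of it from the amylase gene Amy-p, and the 5 muscle markers to 428 and 494 FPKM in Phf7 bam and to 350.2 and 481 FPKM in bam. The 7 cyst and hub markers summed to 105.6 and 124.4 FPKM in Phf7 bam and to 119.1 and 120.4 FPKM in bam. Of the 6 tested, 3 had a positive and 3 a negative difference. The part of germline or somatic content in the BigH1 result was not tested.

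Genes around BigH1 were listed by position. Of the 8965 genes tested, 182 had a more negative difference than BigH1, which was singled out here for its large difference. A cause shared by the region was not tested. BigH1 lies 36828 bp from His4r on the same strand. Its immediate neighbours were Rad17, with a log2 difference of 0.22 (limma adjusted p = 0.906), and Neu3, with 0.07 (limma adjusted p = 0.979), and neither overlaps it in the deposited loci. Within 100 kb, a window chosen after the values were seen, 17 other genes were tested. Their median log2 difference was 0.07 and their lowest -0.13, and only CG31313 had an unadjusted p under 0.05, with a difference of 0.61 (limma adjusted p = 0.597).

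**Figure D2:**
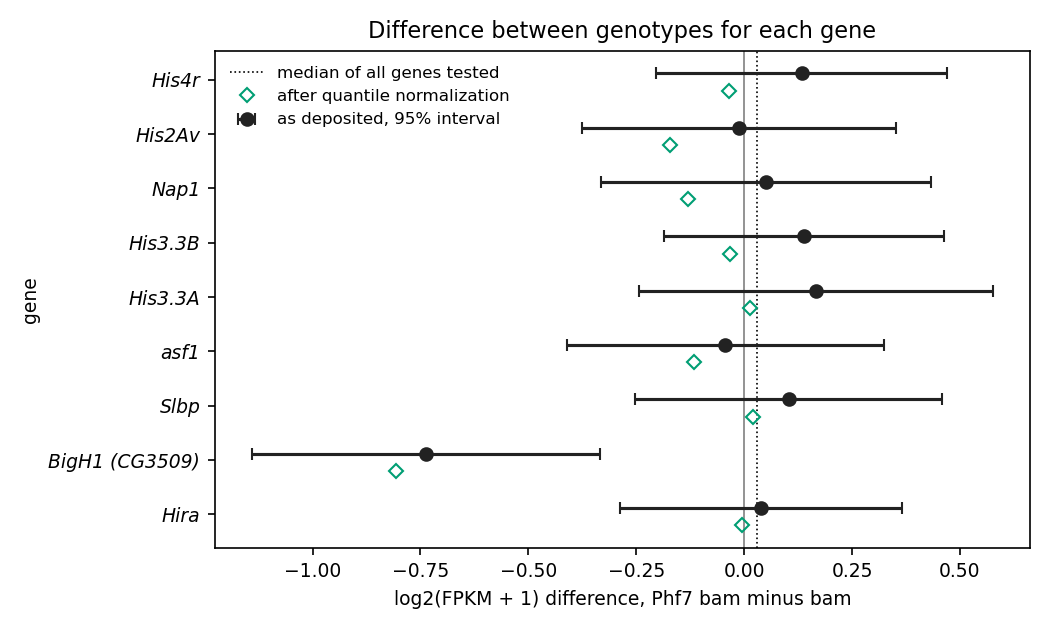
Log2(FPKM + 1) difference of each gene, Phf7 bam minus bam, with limma's 95% interval (black) and the value after quantile normalization (green); the dotted line is the median of all genes tested, 0.03. The interval of BigH1 lies below 0 and the other 8 intervals contain 0.

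Among the chaperones, Nap1 was the most abundant. Nap1 carries H2A and H2B and takes part in chromatin assembly (2R, 19792696 to 19794837, minus strand). It had 518 and 630.1 FPKM in Phf7 bam testes, against 556 and 547 FPKM in bam testes, with the bam libraries between the Phf7 bam libraries. The log2 difference was 0.05 (SE 0.145, limma adjusted p = 0.988).

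asf1 encodes the H3-H4 chaperone that hands histones to both the replication-coupled and the replication-independent assembly complexes (3L, 19611965 to 19613498, plus strand). It had 83.2 and 102.0 FPKM in Phf7 bam testes, against 96.6 and 93.3 FPKM in bam testes. The genotypes overlapped, and the log2 difference was -0.04 (SE 0.140, limma adjusted p = 0.988).

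Hira, which deposits H3.3 outside replication and is needed to assemble paternal chromatin in the fertilised egg (X, 7616167 to 7619942, plus strand), was expressed far below the histone it handles. It had 9.78 and 11.5 FPKM in Phf7 bam testes, against 10.5 and 10.2 FPKM in bam testes. The genotypes overlapped, and the log2 difference was 0.04 (SE 0.124, limma adjusted p = 0.988). The H3.3 gene pair together had 762 and 892 FPKM in Phf7 bam testes, against 744 and 743 FPKM in bam testes, so the order of these levels was the same in both genotypes.

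Slbp encodes the protein that binds the stem-loop of replication-dependent histone mRNA (3R, 24977793 to 24978969, minus strand). It had 69.2 and 84.2 FPKM in Phf7 bam testes, against 70.9 and 71.1 FPKM in bam testes. Phf7 bam replicate 2 was the high library and replicate 1 lay below both bam libraries; the log2 difference was 0.10 (SE 0.135, limma adjusted p = 0.974).

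For the 8 genes other than BigH1 the 95% intervals of the difference reached from 0.752-fold to 1.49-fold on the FPKM + 1 scale, so changes within those bounds are compatible with these data. These 8 genes all had their highest value in Phf7 bam replicate 2, as did 57.4% of the genes tested. In Phf7 bam replicate 1 all 9 genes lay below their own 4-library mean. Quantile normalization lowered all 9 differences and left those of the other 8 between -0.17 and 0.02. BigH1 was at -0.81 there.

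**Figure D3:**
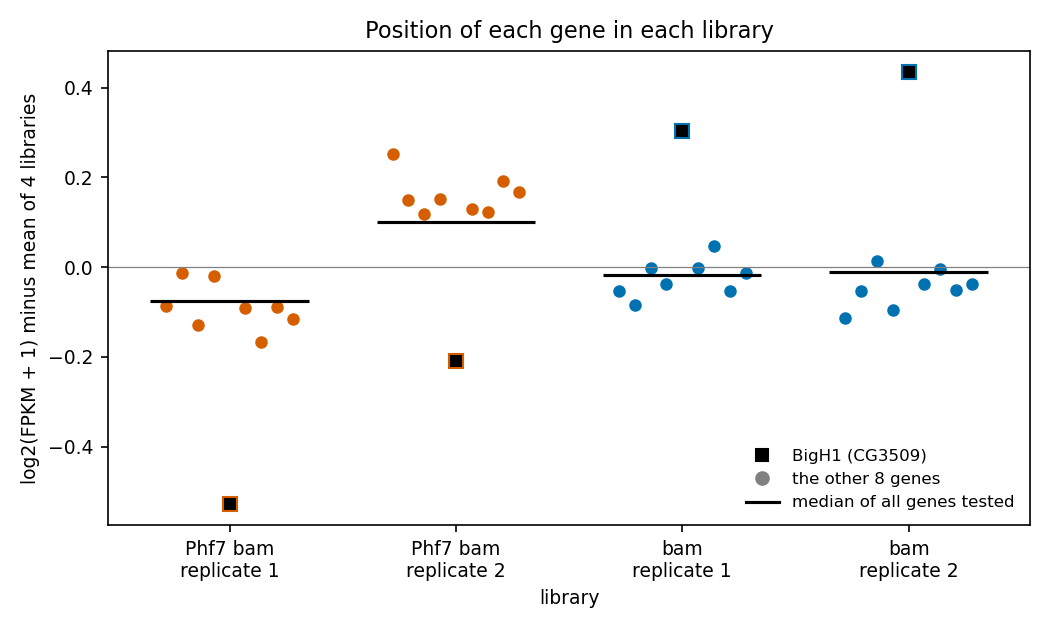
Deviation of each gene from its own mean over the 4 libraries, log2(FPKM + 1), by library; squares are BigH1, circles the other 8 genes and bars the median of all genes tested. The circles move with the bars, high in Phf7 bam replicate 2, whereas BigH1 is below 0 in both Phf7 bam libraries and above 0 in both bam libraries.

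By level, the genes ran in bam testes in the order His4r, His2Av, Nap1, His3.3B, His3.3A, asf1, Slbp, BigH1 and Hira. Over the 4 libraries the ranges of His2Av and Nap1 overlapped, as did those of Nap1 and His3.3B, of asf1 and Slbp, and of BigH1 and Hira. The remaining neighbours in that order had separate ranges. The order uses the deposited FPKM, which lay above its own interval for His2Av, Nap1, His3.3A and Slbp. The factor over the upper bound was largest for His2Av, at 1.24 to 1.25. Whether the order holds with interval midpoints was not tested. In Phf7 bam testes Hira stood above BigH1 in both libraries, whereas in bam testes BigH1 stood above Hira in both.

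The replication-dependent genes were read beside their replacement counterparts. All 111 copies in the tables were tested and limma called 0 of them with standard and 0 with robust moderation; the number with an unadjusted p under 0.05 was also 0. Single copies had 1.63 to 12.6 FPKM. These copies are near-identical and their reads may have been split among them, so values of single copies are uncertain, and the classes are described by their sums. RNA was selected by its poly(A) tail, so the sums do not measure the amount of these mRNAs in the cell.

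The 23 H3 copies summed to 75.1 and 80.4 FPKM in Phf7 bam testes, against 86.6 and 81.7 FPKM in bam testes. The H3.3 pair stood 10.1 and 11.1 times above that sum in Phf7 bam and 8.59 and 9.09 times above it in bam (exact permutation test, two-sided, p = 0.333, the smallest possible). The genotypes do not overlap in this ratio. Among single genes tested, both Phf7 bam libraries lay above both bam libraries for 20.5%. The divisor comes from poly(A)-selected RNA, so the ratio does not measure the proportion of H3.3 to H3 mRNA in the cell. His4r stood 7.45 and 6.45 times above the sum of 22 H4 copies in Phf7 bam and 6.18 and 6.71 times in bam, with overlap. His2Av stood 7.41 and 7.996 times above the sum of 20 H2A copies in Phf7 bam and 6.41 and 7.55 times in bam, again with overlap.

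BigH1 was the exception among replacement genes, lying below its replication-dependent counterpart. The 23 copies of the somatic linker histone His1 summed to 42.2 and 60.0 FPKM in Phf7 bam testes, against 55.9 and 44.2 FPKM in bam testes, and the bam libraries lay between the Phf7 bam libraries. The ratio of BigH1 to that sum was 0.140 and 0.127 in Phf7 bam and 0.202 and 0.282 in bam (exact permutation test, two-sided, p = 0.333, the smallest possible). The 23 H2B copies, which have no replacement form among the 9 genes, summed to 100.2 and 158.7 FPKM in Phf7 bam and to 110.1 and 73.4 FPKM in bam, the widest spread of the 5 classes.

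**Figure D4:**
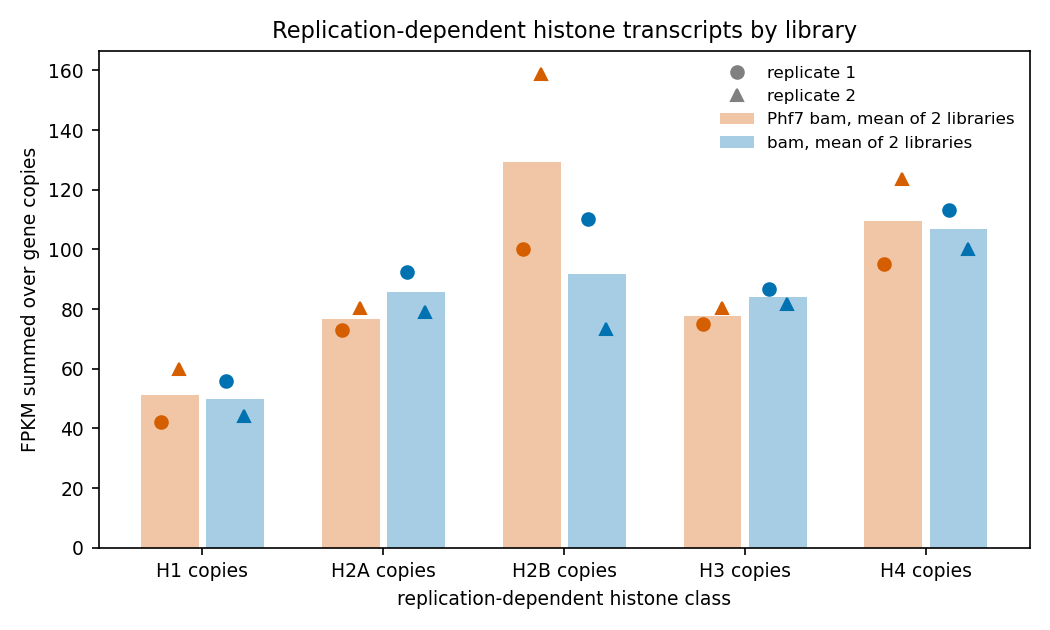
FPKM summed over the copies of each replication-dependent histone class, Phf7 bam in orange left of bam in blue, with bars for means of 2 libraries, circles for replicate 1 and triangles for replicate 2. The genotypes overlap for H1, H2A, H2B and H4. For H3 both Phf7 bam libraries lie below both bam libraries, as they do for 14.0% of single genes tested.

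The other genes of histone handling were read from lists written by role. Of 13 H3-H4 chaperones and remodellers, Hira and asf1 included, 0 were called, and their median log2 difference was -0.01 beside 0.03 over all genes tested. The FACT subunit Ssrp had the highest mean, with 137 and 155 FPKM in Phf7 bam and 142 and 143 FPKM in bam. XNP, the fly ATRX remodeller that acts in H3.3 deposition, had the largest difference, -0.13, with 56.0 and 66.0 FPKM in Phf7 bam and 68.8 and 64.7 FPKM in bam (limma adjusted p = 0.936). The elongation factor and histone chaperone Spt6 had the largest positive one, 0.10 (limma adjusted p = 0.962), and the chromatin protein Dek stood at -0.03.

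Of 7 chaperones of H2A-H2B and of sperm chromatin, 6 were tested and 0 called, with a median of 0.04. The nucleoplasmin-like Nlp, which helps to decondense sperm chromatin, had 303 and 351 FPKM in Phf7 bam and 314 and 304 FPKM in bam. Jabba, which docks maternal histones on lipid droplets, had 33.0 and 37.2 FPKM in Phf7 bam and 38.8 and 44.7 FPKM in bam, a difference of -0.24 (limma adjusted p = 0.906). Set, another histone chaperone, had a difference of 0.13 (limma adjusted p = 0.932). The remaining gene, mil, a relative of Nap1, was listed at 0 in all 4 libraries.

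For exchange of His2Av, 15 of 16 listed genes were tested and 0 called, with a median of 0.04. The ATPase dom had 128 and 151 FPKM in Phf7 bam and 138 and 132 FPKM in bam, and MrgBP differed by -0.01. Brd8 and Eaf6, subunits of the same complex, had the largest differences, 0.23 and 0.17 (limma adjusted p = 0.906 and 0.919). Tip60, the acetyltransferase of the complex, was listed at 0 in all 4 libraries, which can be a failed estimate.

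For histone mRNA processing, 10 of 11 listed genes were tested, Slbp among them, and 0 called, with a median of 0.09. mute, a component of the histone locus body, differed by -0.02. CstF64, a cleavage factor, had 28.9 and 34.0 FPKM in Phf7 bam and 25.3 and 27.0 FPKM in bam, a difference of 0.25 (limma adjusted p = 0.906). FLASH, another factor of the histone locus body, differed by 0.21 (limma adjusted p = 0.906).

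Transcripts of proteins that replace histones in spermatids were close to absent. All 7 listed genes, the protamine genes among them, were below the filter, and the highest value in any library was 0.975 FPKM, for Mst77F in bam replicate 1. The 3 genes of the centromeric nucleosome had differences of 0.12 to 0.19, with none called: the H3 variant gene cid had 15.9 and 22.4 FPKM in Phf7 bam and 16.9 and 17.7 FPKM in bam, cal1, its loading factor, differed by 0.13, and Cenp-C by 0.19.

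DNA replication genes, which mark S phase, were listed for comparison. Of 12, none was called and 9 had a negative difference, beside 3822 of all 8965 genes tested. Their median was -0.09, beside 0.03 over all genes tested. PCNA had 273 and 329 FPKM in Phf7 bam and 313 and 286 FPKM in bam. Mcm6 had the largest difference, with 36.4 and 46.6 FPKM in Phf7 bam and 51.1 and 48.9 FPKM in bam (-0.27, limma adjusted p = 0.906), and geminin differed by -0.23 (limma adjusted p = 0.906).

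**Figure D5:**
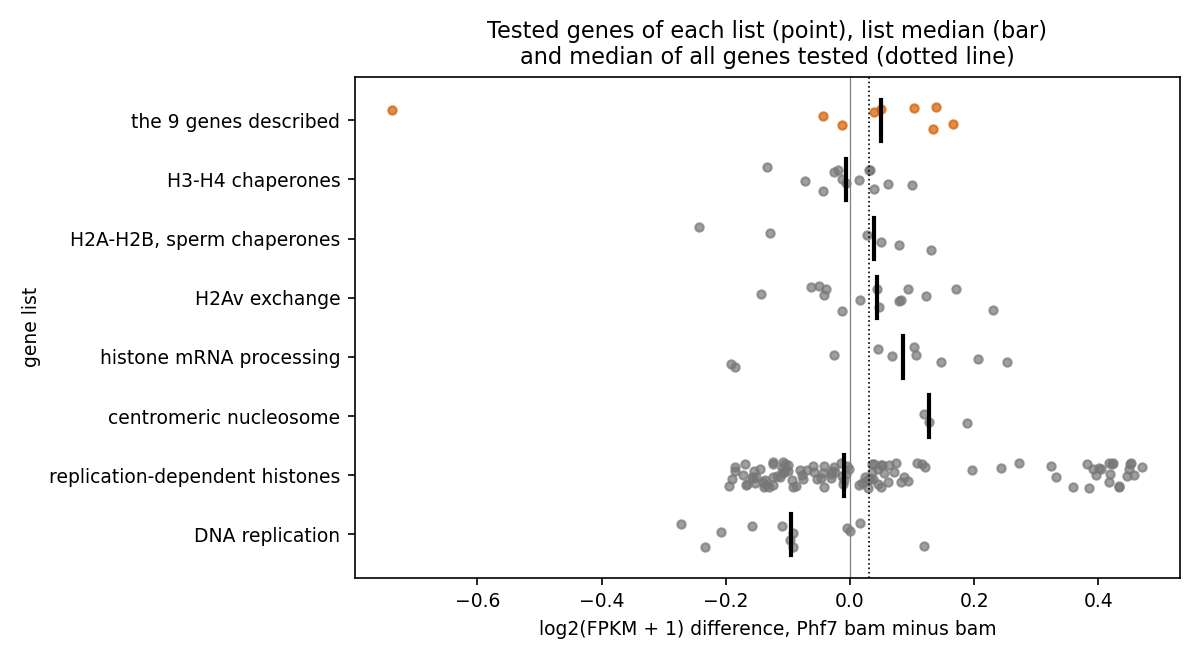
Log2(FPKM + 1) difference, Phf7 bam minus bam, of each tested gene in the 9 genes described and in 7 lists; black bars are list medians and the dotted line the median of all genes tested. BigH1, at -0.74, is the point farthest to the left, and the other genes of the lists lie between -0.27 and 0.47, the upper end being single H2B copies, whose values are uncertain.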

How the data were processed

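Poly(A) RNA of 4 testis libraries was selected with oligo-dT beads and prepared with a directional kit, per the labels' protocols. Tools named in the submitters' processing notes are TopHat2, Cufflinks and Cuffdiff, with dm3 as the build. The gene annotation, the use of strand and the handling of reads shared by gene copies: not given in the sources used here. Per library, the authors deposited 1 table of FPKM, per the file headers, with 14664 genes. Summed FPKM was 650127 to 662056 per library. Because these are not counts, absolute depth is unknown; the spacing of FPKM values up to 0.15 gave relative depths of 1.16 and 1.42 for Phf7 bam replicates 1 and 2, and 1 and 1.23 for bam replicates 1 and 2. The deposited FPKM lay outside its own deposited interval for 13.1% to 16.9% of genes.

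Genes with a mean of at least 1 FPKM (8965) were fitted as log2(FPKM + 1) on genotype with limma 3.58.1 in R 4.3.3, with a mean-expression trend in its empirical Bayes step. This scale understates changes of low genes. The 2 residual degrees of freedom were joined by 2.64 from the prior. Tests were two-sided, with Benjamini-Hochberg adjustment over all 8965 genes and a threshold of 0.05. Ratios within a library were compared by exact permutation of libraries. P-values measure the spread between these libraries. Figures were drawn with matplotlib 3.10.9, and tables joined with pandas 2.3.3 in Python 3.11.15. Coordinates are those of the deposited loci in dm3, counted from 1. Strand was taken by identifier from a BDGP6 annotation, and current symbols were matched for 13335 identifiers.

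Of the loci of the 9 genes, that of His3.3A overlaps Nepl3 by 14 bp and that of His3.3B overlaps CG11042 by 453 bp; both partners were listed at 0 in all libraries. The genes and lists were chosen with earlier results of these data known. Named were the 9 genes, Phf7, bam and, of each list of histone or replication genes, the 2 with the highest mean and the 2 with the largest difference. Single replication-dependent copies are not named. Named after their values were seen were nanos, vas, zpg, the spermatocyte markers, mil, Tip60, He, NimC1, Amy-p, Yp1, Yp2, cid, Mst77F, the neighbours of BigH1 and CG31313. Alternatives were pseudocounts of 0.1 or 0.5, no filter or a mean of at least 5 FPKM, equal medians, quantile normalization, no trend, robust moderation, a replicate block and each library left out, and, added after seeing the data, a crossed pairing and interval midpoints in place of FPKM.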

Additional observations from a re-analysis of the deposited data

How the results depend on the processing

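BigH1 kept its negative difference in all 15 alternatives and was called in 1, robust moderation, where the count of called members was 1. The other 8 genes were called in none, and their small differences changed sign in places. With quantile normalization the log2 difference of His3.3B was -0.034, of His4r -0.035, of Hira -0.0060 and of Nap1 -0.13. With 1 library left out, the lowest value came without Phf7 bam replicate 2 and the highest without Phf7 bam replicate 1: -0.0040 to 0.34 for His3.3A, -0.14 to 0.11 for His2Av, -0.071 to 0.15 for Hira, -0.19 to 0.10 for asf1, -0.037 to 0.24 for Slbp and -0.091 to 0.19 for Nap1. The Phf7 bam minus bam difference in the His3.3A share was 0.463 percentage points and ranged from -0.977 to 1.90 with a library left out.

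Over all genes limma called 11 higher and 10 lower. Counts were 0 and 0 with no filter (1051 genes at an unadjusted p under 0.05), 20 and 17 with a mean of at least 5 FPKM, 217 and 90 with robust moderation, 33 and 18 with interval midpoints, and 7 higher with quantile normalization. With a library left out they ranged from 0 to 45 higher and from 0 to 56 lower. They were 0 and 0 without either Phf7 bam library, with 1432 and 979 genes at an unadjusted p under 0.05 without replicate 1 and 2. Without bam replicate 1 they were 38 and 38, and without bam replicate 2 they were 45 and 56. The lone library was assumed to vary like the other genotype. The cause of these moves was not tested. Same-numbered libraries deviated in opposite directions (correlation -0.367 over genes), so the numbers were not taken as pairs; a replicate block gave 8 higher and 10 lower, and the crossed pairing, chosen after seeing the data, 98 and 35. With 2 libraries per genotype, a p that misses the threshold does not show that levels were equal.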
